A study of Mus musculus with 165 samples.

Results

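PUER cells are a mouse myeloid progenitor line in which the transcription factor PU.1 can be switched on, and the comparison described here is that between their first and last libraries under granulocyte colony-stimulating factor (GCSF). It comprised 6 RNA-seq libraries, found by their titles, 3 at 0 h and 3 at 168 h, which are 2 of the 56 groups of libraries in the series. All libraries came from 1 cell line, derived from PU.1-null (Spi1-/-) mice and carrying a PU.1 protein joined to the part of the estrogen receptor that binds its ligand. The fusion protein becomes active when 4-hydroxytamoxifen (OHT) is added. The GCSF 0h cells had spent 48 h in 10 ng/mL GCSF in place of the interleukin 3 (IL3) in which the line is kept. They had not yet received OHT, although their title names it. The GCSF-OHT 168h cells had the same pretreatment followed by 168 h in GCSF with 100 nM OHT, which was refreshed at 40, 88 and 136 h. No cells kept for 168 h in GCSF without OHT were analysed here, so that the activation of PU.1 and the time in culture cannot be told apart. The 168 h cells were also detached with trypsin while the 0 h cells were not, and each time point had its own culture plate. The first and last libraries of the IL3 course are used where the change in GCSF is set against that in IL3, where the start was undifferentiated cells in 5 ng/mL IL3 and the end was 168 h in IL3 with 200 nM OHT.

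PU.1 is an ETS-family transcription factor that myeloid cells need in order to form, and it activates genes for integrins, Fc receptors, cytokine receptors and the phagocyte oxidase. In the bone marrow, neutrophils pass through stages that are marked by their granules. Primary granule proteins such as myeloperoxidase and elastase are made by promyelocytes, secondary and tertiary granule proteins such as lactoferrin and gelatinase by later cells, and receptors for chemoattractants appear in the mature cell, which no longer divides. GCSF drives neutrophil production, and PUER cells kept in it before PU.1 is activated take a neutrophil course.

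The GCSF 0h libraries held 20911551 to 21736141 reads assigned to genes and the GCSF-OHT 168h libraries 16894326 to 25591964. The 10 most abundant genes took 4.85 to 5.02% of the reads at 0 h and 12.1 to 12.5% at 168 h. Mitochondrially encoded genes took 1.94 to 2.16% and 1.40 to 1.53%. All values below are the normalized counts deposited by the authors, in which 1 read was worth 0.86 to 1.30 in these 6 libraries. A gene was called when its adjusted p was under 0.05 in limma and its difference exceeded 0.58 on the log2 scale of the normalized count + 1.

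Of 17414 genes tested, 2110 were higher at 168 h (12.1% of all genes tested) and 2200 were lower (12.6%). The differences were uneven in size. A difference over 2 on the log2 scale was found for 408 genes that rose and 330 that fell, and one over 5 for 54 that rose and 10 that fell. The 3 libraries of one group lay entirely above those of the other for 2023 of the genes that rose and 2117 of those that fell. This separation was common, as it held for 27.7% of all genes in the upward and 29.2% in the downward direction. Among the calls, 57 had at most 3 reads in every library of both groups, and without them 2088 genes rose and 2165 fell. In these bulk samples, fewer cells of a type and less RNA per cell cannot be told apart.

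**Figure D1:**
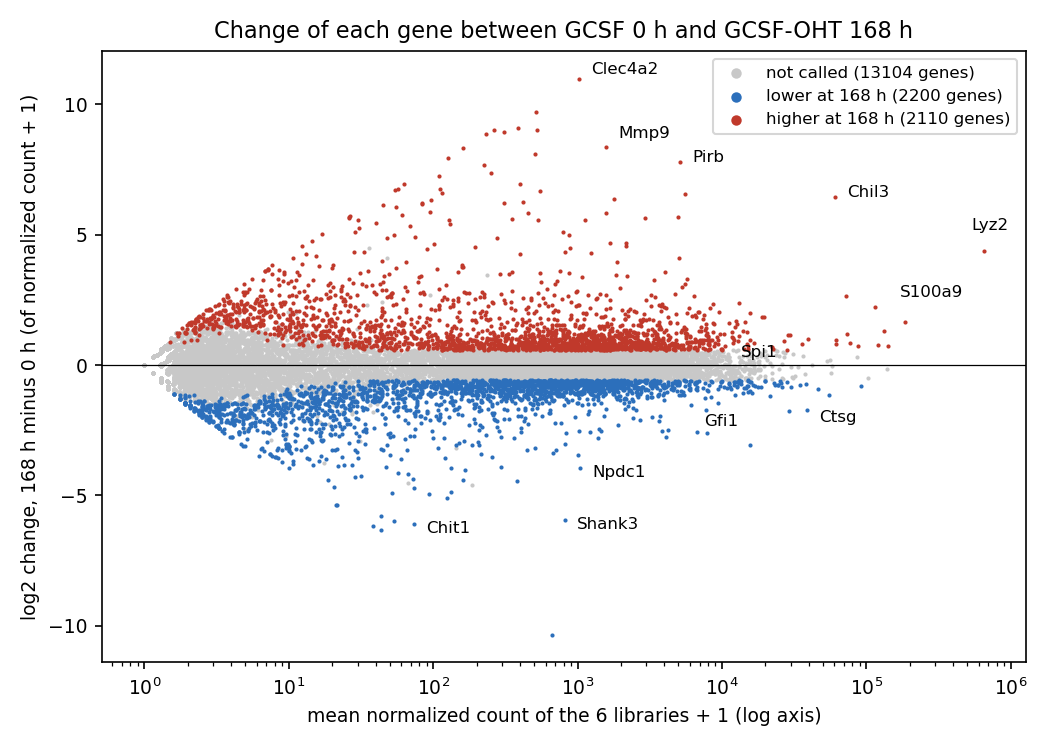
Log2 change of each of 17414 genes between GCSF 0h and GCSF-OHT 168h (y axis) against its mean normalized count over the 6 libraries plus 1 (x axis, log scale). Red points are the 2110 genes called higher, blue points the 2200 called lower and grey points genes not called. The largest rises reached beyond 8 on the log2 scale, while few falls passed 5.

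Transcripts of PU.1 itself were abundant at both ends. Spi1 (chr2:91082390-91115756, GRCm38), which encodes PU.1, measured 12483, 12811 and 12464 at 0 h and 11004, 10728 and 11631 at 168 h. All 3 libraries at 168 h were below those at 0 h, by 0.18 ± 0.05 (SE) on the log2 scale, which is under the size required for a call (limma, adjusted p = 0.000811). Since the cells are PU.1-null and carry the fusion, reads of the fusion and of the disrupted gene cannot be told apart.

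Genes known to be bound and activated by PU.1 mostly rose. Of 18 tested, 12 rose and none fell, with a median log2 difference of 1.14. Over all genes the median was 0, and 12.1% rose and 12.6% fell. The CD11b integrin gene Itgam measured 199, 174.4 and 149.1 at 0 h and 4235, 4140.1 and 4086 at 168 h. The groups did not overlap, and the rise was 4.58 ± 0.06 on the log2 scale (limma, adjusted p = 8.92e-94). Mpeg1, which encodes the pore-forming perforin-2 of phagocytes, went from 128, 100.0 and 114.6 to 5292, 5285 and 6738, a rise of 5.65 ± 0.11. Cybb, the catalytic subunit of the phagocyte NADPH oxidase, measured 27.7, 74.4 and 37.3 at 0 h and 1304, 1367 and 1922 at 168 h. It rose by 5.11 ± 0.21. The scavenger receptor gene Msr1 had no read in the 3 libraries at 0 h and measured 90.5, 97.8 and 130.1 at 168 h, at least 38.7-fold higher when 0 h is set to a floor of 3 reads per library. The partners of Cybb in the oxidase moved less. Ncf4 rose by 2.08 ± 0.19 and Cybc1, a chaperone of the complex, by 0.65 ± 0.05, while Ncf1, Cyba, Rac1 and Rac2 differed by 0.01 to 0.38 and were not called.

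The receptors that pair inhibitory with activating members on myeloid cells held several of the largest rises. Of 26 tested, 21 rose and none fell, beside 12.1% and 12.6% of all genes, and their median log2 difference was 3.50. Clec4a2, a C-type lectin receptor gene (chr6:123106428-123143999), had no read at 0 h and measured 1899, 2071 and 2143 at 168 h, at least 743-fold higher against the same floor. Pirb (chr7:3711409-3720391) encodes an inhibitory receptor for MHC class I. It measured 40.7, 49.6 and 44.7 at 0 h and 9833, 9891 and 10756 at 168 h, a rise of 7.79 ± 0.14 (limma, adjusted p = 2.52e-80). Its activating relative Pira2 was at 0 in the 3 libraries at 0 h and at 273, 326 and 365 at 168 h, at least 117.2-fold higher. Reads can be split between the near-identical Pira and Pirb genes in the authors' counting, so that the value of each is uncertain. Tyrobp, the DAP12 adaptor through which activating receptors signal, had 2 reads in 1 of the 3 libraries at 0 h and measured 202.7, 182.6 and 270.4 at 168 h. The ratio of 368 has a counting interval of 101.5 to 3047 (exact, 95%). Trem1, Trem2, Trem3, Treml4 and Siglecf were not called.

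Because these receptor genes rose together, their promoters were searched for the 8 bases GAGGAAGT, which form the core of the PU.1 recognition sequence, on both strands of the RefSeq windows from 250 bases before to 50 after each start site. Of 32851 promoters in the table, 3.20% held these letters. Among genes with a promoter in the table, they were found for 5.23% of 1586 genes that rose, 3.46% of 1532 that fell and 3.50% of 8536 not called. Of the paired receptors, 22 had a promoter in the table and 4 held the letters. Of the 12 largest rises, 8 had a promoter there and 3 held them, against 0 of 7 for the largest falls. The letters were in 4 of 16 promoters of secondary and tertiary granule genes, 1 of 27 of late neutrophil genes and 0 of 13 of the PU.1 target genes above. The 120 bases around the match are shown for the 4 genes among the paired receptors and largest rises whose match lies before the start site, 5′ to 3′ on the gene's strand (build GRCm38.p6), with the match in capitals.
Pirb (chr7:3720439-3720558, minus strand): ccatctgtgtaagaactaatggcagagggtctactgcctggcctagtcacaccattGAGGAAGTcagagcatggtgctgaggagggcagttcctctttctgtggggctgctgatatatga
Pira2 (chr7:3845136-3845255, minus strand): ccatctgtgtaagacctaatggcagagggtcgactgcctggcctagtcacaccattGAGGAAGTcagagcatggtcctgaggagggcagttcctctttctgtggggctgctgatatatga
Cd300ld (chr11:114989966-114990085, minus strand): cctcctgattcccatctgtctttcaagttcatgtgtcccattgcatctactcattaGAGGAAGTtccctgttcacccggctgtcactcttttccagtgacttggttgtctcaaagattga
Cyp2a5 (chr7:26835089-26835208, plus strand): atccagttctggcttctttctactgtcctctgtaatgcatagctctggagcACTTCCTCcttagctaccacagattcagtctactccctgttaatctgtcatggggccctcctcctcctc
The Pirb and Pira2 stretches differed at 3 of 120 bases, so that their matches are not independent. Both are counted among the paired receptors and again among the largest rises. Their match began 120 and 148 bases before the respective start site. The match of Cd300ld began 143 bases before its start, and that of Cyp2a5, on the opposite strand, 199 bases before. Cd300ld, an activating receptor gene, measured 17.6, 13.3 and 13.0 at 0 h and 759, 805 and 1129 at 168 h, a rise of 5.83 ± 0.17. A match of letters is a description and not a site of binding.

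Other genes among the 12 largest rises had few or no reads at 0 h. Cyp2a5, a cytochrome P450 gene, had 2 reads in 1 library at 0 h and measured 769, 778 and 766 at 168 h, a ratio of 1265 with a counting interval of 349.8 to 10452. Sla, which encodes an adaptor that dampens receptor signalling, and Clec4n, the receptor Dectin-2 for fungal sugars, were at 0 at 0 h. They measured 424, 463 and 684, and 233, 211.2 and 311, at 168 h, at least 190.97-fold and 91.8-fold higher. Ptprc, the phosphatase CD45 found on blood cells, was listed at 0, 0 and 0.93 at 0 h and at 515, 563 and 771 at 168 h, a ratio of 2065 with an interval of 370.2 to 81608. Other leukocyte genes were abundant at 0 h, among them Itgb2, the beta chain of the CD11 integrins, at 18572, 15669 and 16521. The formyl peptide receptor gene Fpr1 measured 1.85, 0.89 and 3.73 at 0 h and 397, 441 and 664 at 168 h, a rise of 7.38 ± 0.40. Lyz1 measured 0, 1.77 and 1.86 against 991, 1011 and 1123, but its reads can be confused with those of its near-identical neighbour Lyz2.

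The neutrophil marker genes moved in both directions. Of 18 tested, 11 rose, 5 fell and 2 were not called, while 12.1% of all genes rose and 12.6% fell. The gelatinase gene Mmp9 (chr2:164940780-164955850), of tertiary granules, measured 11.1, 8.85 and 5.59 at 0 h and 2679, 2681 and 4000.1 at 168 h, a rise of 8.38 ± 0.20. The chemokine receptor gene Cxcr2, through which mature neutrophils leave the marrow, measured 297, 303 and 324 at 0 h and 3575, 3418 and 3203 at 168 h. It rose by 3.46 ± 0.09 (limma, adjusted p = 3.15e-62). The alarmin genes S100a8 and S100a9 were already abundant at 0 h and rose by 1.32 ± 0.09 and 1.64 ± 0.07. S100a9 went from 83961, 88416 and 95908 to 276086, 290932 and 267869. Ly6g, whose protein defines mouse neutrophils in flow cytometry, measured 17.6, 23.0 and 20.5 at 0 h and 37.4, 27.4 and 23.1 at 168 h. All 3 libraries at 168 h exceeded those at 0 h, but the difference of 0.48 ± 0.32 did not pass the test (limma, adjusted p = 0.219). The secondary granule gene Ngp differed by 0.34 ± 0.07 and was not called either.

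**Figure D2:**
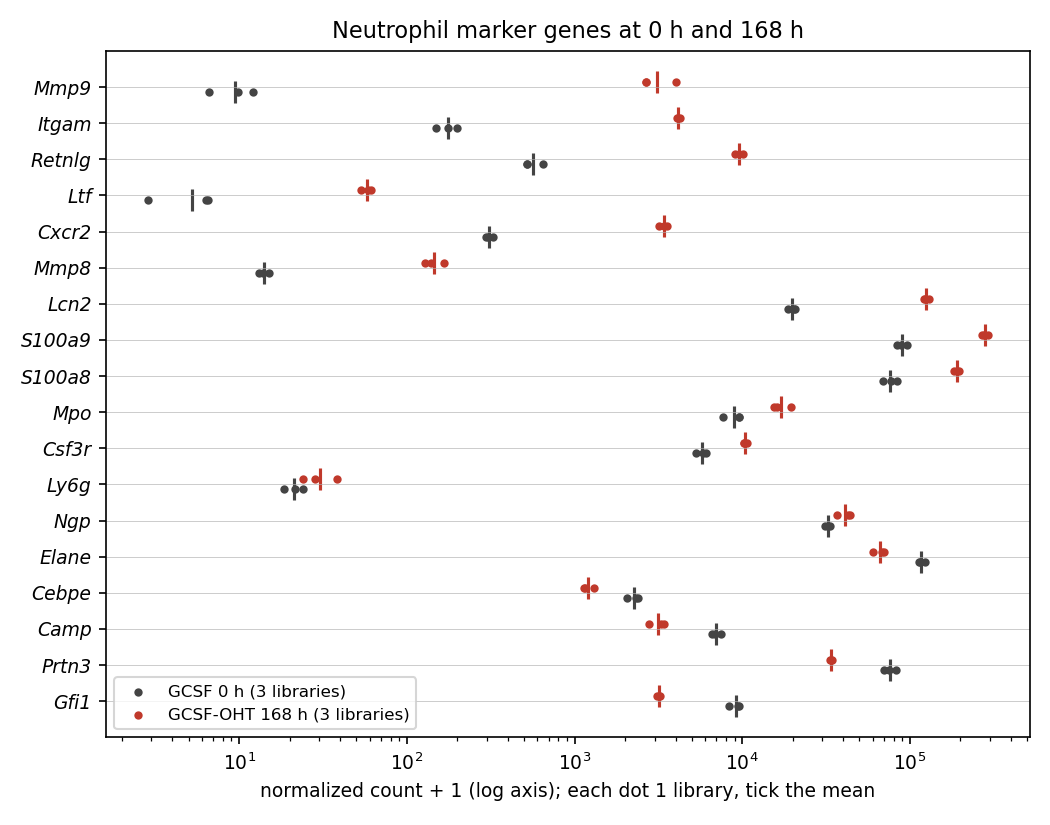
Normalized counts plus 1 (x axis, log scale) of 18 neutrophil marker genes (y axis), ordered by their log2 change. Grey dots are the 3 libraries of GCSF 0h and red dots the 3 of GCSF-OHT 168h, and ticks mark means. Mmp9, at the top, differed by 8.38 on the log2 scale, and Gfi1, at the bottom, by -1.52.

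Most genes of late neutrophils rose, with 25 of 29 rising against 12.1% of all genes, none falling and a median of 1.64. Retnlg, a secreted protein of mature neutrophils, measured 648, 521 and 517 at 0 h and 9608, 10074 and 8991 at 168 h, a rise of 4.09 ± 0.10. Wfdc17 rose by 6.74 ± 0.37 and Il1r2, the decoy receptor for interleukin 1, by 3.54 ± 0.14. Trem1, Trem3, Ifitm2 and Il1b were not called. Stefin A genes of this list share sequence with close copies, and their values are uncertain.

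Secondary and tertiary granule genes rose more often than they fell, 11 against 3 of 20, with a median of 1.03. The shares of all genes that rose and fell were 12.1% and 12.6%. Lyz2, which encodes lysozyme M (chr10:117277331-117282321), became the most abundant transcript, going from 0.289 to 0.325% of all gene reads at 0 h to 5.53 to 5.77% at 168 h. Its rise was 4.37 ± 0.06 (limma, adjusted p = 5.08e-93). Chil3, the chitinase-like protein Ym1, measured 1389.9, 1328 and 1423 at 0 h and 115651, 119300.0 and 122079 at 168 h, and rose by 6.43 ± 0.08. The iron-chelator gene Lcn2 rose by 2.66 ± 0.08, from 20228, 18758 and 20638 to 121589, 130571 and 123288. Ltf, lactoferrin, rose by 3.55 ± 0.30 but stayed scarce, at 60.01, 57.4 and 52.2 at 168 h. The antimicrobial peptide gene Camp fell by 1.15 on the log2 scale (SE 0.08), and Orm1 fell by 0.80 (SE 0.18).

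Primary granule genes moved in both directions, 4 up and 6 down of 11, beside 12.1% and 12.6% of all genes, with a median of -0.82. The serine protease gene Ctsg, cathepsin G, measured 55175, 61215 and 62676 at 0 h and 17928, 18469.6 and 17796 at 168 h. It fell by 1.72 on the log2 scale (SE 0.04; limma, adjusted p = 2.44e-65). Elane, elastase, and Prtn3, proteinase 3, fell by 0.82 (SE 0.07) and 1.17 (SE 0.07). Srgn, the proteoglycan that packs granule proteases, fell by 1.74 (SE 0.05). Mpo, myeloperoxidase, rose instead, from 7632, 9516 and 9507 to 16178, 15447 and 19429, a difference of 0.94 ± 0.10. Ctsc, the enzyme that activates the granule proteases, rose by 2.66 ± 0.16 from a low level.

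Of 19 transcription factors of neutrophil and macrophage fate, 9 rose, 3 fell and 7 were not called. Beside these counts, 12.1% of all genes rose and 12.6% fell. The falls among the 19 were of factors that neutrophil progenitors require. Gfi1, a repressor that holds cells to the neutrophil course, measured 8342, 9562 and 9445 at 0 h and 3183, 3214 and 3114 at 168 h, and fell by 1.52 (SE 0.06; limma, adjusted p = 1.6e-46). Cebpe, needed for secondary granules, fell by 0.91 (SE 0.10), and Cebpa fell by 0.69 (SE 0.13). Gfi1 and Cebpe averaged 1034 and 881 in undifferentiated cells and 3170 and 1198 at 168 h. Klf2 rose by 2.31 ± 0.15, Egr1, a factor of macrophage fate that is also an immediate-early gene, by 2.10 ± 0.18, Bhlhe40 by 2.04 ± 0.13 and Id2, an inhibitor of basic helix-loop-helix factors, by 1.73 ± 0.12. In undifferentiated cells Klf2, Egr1, Bhlhe40 and Id2 averaged 1112, 2944, 7800 and 492. At 168 h they averaged 1688, 1122, 4060 and 705, so that Egr1 and Bhlhe40 stayed below the undifferentiated level. Klf4 and Maf, factors of monocytes and macrophages, had no read in the 6 libraries, and Irf8 differed by -0.01. With 160 h in place of 168 h, Cebpe was not called and 1 of the 19 factors fell instead of 3.

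Markers of other cell types were examined beside these groups. As a measure for their counts, 12.1% of all genes rose and 12.6% fell. Of 17 tested genes of monocytes and macrophages, 8 rose and 5 fell, and their summed level was 66700 to 79810 at 0 h and 42610 to 44961 at 168 h. This total was carried by Spp1 and Ly6c2. These were set aside after their values were seen. The other 15 tested markers summed to 5163 to 6540.1 at 0 h and 18515 to 22260.1 at 168 h. Both genes set aside fell, so that leaving them out could only move the comparison upward. Nothing is read from the reduced sum, in which Mpeg1, Cx3cr1 and Ccr2 had means of 5772, 4167 and 3225 at 168 h. Among those that rose were the chemokine receptor genes Cx3cr1, from 201.5, 149.6 and 135.1 to 3999, 3896 and 4607, and Ccr2, from 134.9, 101.8 and 136 to 2790.0, 3109 and 3776. Adgre1, the macrophage antigen F4/80, went from 8.32, 4.43 and 2.80 to 207.6, 207 and 349. Spp1, osteopontin, and Ly6c2 fell by 1.75 (SE 0.09) and 1.07 (SE 0.08). C1qa, C1qb, C1qc, Ms4a7 and Maf were at 0 in both groups. Dendritic cell markers summed to 24.2 to 31.9 at 0 h and 94.4 to 122.4 at 168 h with H2-Aa and H2-Ab1 at 0 throughout, and 2 of 10 rose. Lymphocyte markers summed to 38.2 to 62.9 and 28.2 to 36.4, eosinophil markers to at most 11.1, and markers of red cells and megakaryocytes to 122.1 to 146.9 and 166.9 to 190.9. Those of mast cells and basophils summed to 4249.8 to 4272 and 2648 to 2715, and 3 of 5 fell, namely Mcpt8, Gata2 and Kit. Their part in the results was not tested.

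Progenitor genes moved more often down than up. Of 14 tested, 6 fell, 1 rose and 7 were not called, while 12.6% of all genes fell and 12.1% rose. Sox4, a factor of immature cells, measured 2698, 2324 and 2187 at 0 h and 671, 566 and 638 at 168 h, and fell by 1.94 (SE 0.11). Myb fell by 0.94 (SE 0.05), Myc by 0.85 (SE 0.07) and Kit, the stem cell factor receptor gene, by 0.70 (SE 0.06). Myb averaged 1626 in undifferentiated cells and 4578 at 168 h, so that it stayed above the undifferentiated level. Sox4, at 7767 and 625, and Myc, at 4129 and 2002, ended below theirs. Lyl1 rose by 0.96 ± 0.09. Meis1, Mecom and Mycn were too scarce to be tested.

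Genes of DNA replication and mitosis were lower at 168 h. Of 30 mitosis genes, 24 fell and none rose, with a median of -0.71, and of 30 DNA replication genes 16 fell and none rose, with a median of -0.60. In both lists, the 3 libraries at 168 h were below those at 0 h for 30 of 30 genes, as they were for 29.2% of all genes. Among all genes, 12.1% were called higher and 12.6% lower. Cdc20, the activator of the anaphase-promoting complex, measured 2485, 2685 and 2799 at 0 h and 1061, 1072 and 1116 at 168 h, and fell by 1.29 (SE 0.08; limma, adjusted p = 3.71e-29). The mitotic kinase gene Plk1 fell by 1.18 (SE 0.08), and the replication licensing gene Cdt1 by 1.10 (SE 0.09). In undifferentiated cells, before the GCSF pretreatment, Cdc20, Plk1 and Cdt1 averaged 992, 631 and 796. Their means at 168 h were 1083, 814 and 990, so that they fell from 0 h but not below the undifferentiated level. Among 23 genes of the G1 phase, 5 rose and 1 fell. The inhibitor Cdkn1b, p27, rose by 1.53 ± 0.08, and Cdk6, a kinase that opposes differentiation, fell by 0.89 (SE 0.07). Cdk6 averaged 6114 in undifferentiated cells and 9917 at 168 h, so that it stayed above the undifferentiated level. E2f2 rose by 2.18 ± 0.08, from 1329.8, 1593 and 1501 to 6762, 6332 and 6878. With 160 h in place of 168 h, 26 of the 30 DNA replication genes fell.

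Most genes that build ribosomes fell as well. Of 25 tested, 19 fell and none rose, with a median of -0.84, and all 25 were lower in each library at 168 h than in any at 0 h. This separation held for 29.2% of all genes. Ppan, a ribosome assembly factor, measured 1994, 1865 and 1878 at 0 h and 669, 670.2 and 703 at 168 h, and fell by 1.49 (SE 0.08). Of 33 genes of the respiratory chain, 9 fell and none rose, with a median of -0.40, and 14 fell with 160 h in place of 168 h. Of 23 genes of glucose uptake and glycolysis, 11 rose and 1 fell. The glucose transporter gene Slc2a1 measured 1219, 1147 and 1064 at 0 h and 11868, 9709 and 8051 at 168 h, a rise of 3.09 ± 0.16, and Hk2, hexokinase 2, rose by 1.88 ± 0.11. In undifferentiated cells Slc2a1 averaged 15390.5, above its level at 168 h, and Hk2 averaged 4283, below its mean of 9766 at 168 h. Of 24 genes of cholesterol synthesis and uptake, 6 rose at 168 h and 15 with 160 h in its place. For the groups of this paragraph, the shares over all genes at 168 h were 12.1% rising and 12.6% falling.

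Receptor genes for migration, microbes and cytokines were called higher more often than lower. Among all genes, 12.1% were called higher and 12.6% lower. Of 24 migration and adhesion receptors, 17 rose and none fell, and of 23 genes of pattern recognition, 13 rose and 1 fell. Tlr13, a receptor for bacterial ribosomal RNA, measured 77.6, 75.3 and 68.03 at 0 h and 1557, 1786 and 1746 at 168 h, a rise of 4.51 ± 0.12. Nlrp3, the inflammasome sensor, rose by 2.70 ± 0.09. It averaged 2307 in undifferentiated cells, 180.6 at 0 h and 1181 at 168 h. The GCSF receptor gene Csf3r rose by 0.87 ± 0.06, from 5266, 6039.9 and 5847 to 10305, 10245 and 10720.2. Of the 24 cytokine receptors and STAT feedback genes, 12 rose and 2 fell, the falls being of the feedback inhibitors Cish, by 1.78 (SE 0.08), and Socs2, by 1.11 (SE 0.08). Of 20 cytokine and chemokine genes, 10 rose and none fell. Tnf rose by 2.41 ± 0.10.

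Most interferon-stimulated genes also rose, 19 of 24 against 12.1% of all genes, with none falling. Their median was 2.40, or 1.95 when genes at 0 are set to their bound. Many members were scarce at 0 h, where 11 of the 25 in the list had at most 3 reads in every library. The summed level of the list was 4985 to 5254 at 0 h and 7764 to 8921 at 168 h. Irf7, a factor of the interferon response, measured 48.1, 58.4 and 68.97 at 0 h and 332, 383 and 450.1 at 168 h, a rise of 2.71 ± 0.25. Ifit1 measured 16.6, 20.4 and 20.5 against 188.9, 364 and 339, and rose by 3.83 ± 0.56. When genes with a mean normalized count below 10 were left out, 10 members of the list rose.

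Of 20 immediate-early genes, which respond to many stimuli including handling, 15 rose and 3 fell, beside 12.1% and 12.6% of all genes. Fos measured 218, 188.6 and 164.96 at 0 h and 1946, 2139.8 and 1826 at 168 h, a rise of 3.37 ± 0.12, and Jun rose by 2.49 ± 0.09. Dusp2, a phosphatase of MAP kinases, went the other way, from 151, 128 and 144 to 2.95, 6.52 and 4.28, and fell by 4.71 (SE 0.42). In the GCSF course, Fos averaged 347 at 24 h and 2221 at 32 h, Fosb 34.4 and 1265, and Egr1 92.8 and 1175. Fosb had its highest mean, 4987, at 1 h. The study used trypsin at all time points after 24 h. Undifferentiated cells were not among these, and in them Egr1 averaged 2944, above its highest mean in the GCSF course, 1175. Fosb was also higher in undifferentiated cells than at any GCSF time point. The part of trypsin and of the GCSF pretreatment in these levels was not tested. The use of trypsin on the 168 h cells only cannot be told apart from the other differences between the groups here.

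Other groups gave fewer calls. Of 29 lysosomal genes, 11 rose and 1 fell. The Fc receptor genes gave 3 rises and 1 fall of 7, the fall being of Fcgrt, the neonatal Fc receptor, by 2.13 (SE 0.14). Of 12 genes of eicosanoid synthesis, 2 rose, among them Ptgs2, cyclooxygenase 2, and 2 fell, among them Ltc4s, leukotriene C4 synthase. Ptgs2 averaged 508 in undifferentiated cells and 70.6 at 168 h. Antigen presentation genes gave 2 rises and 1 fall of 13, genes of the nuclear lamina and envelope 0 and 2 of 12, and genes of the estrogen response 1 and 1 of 6. Over all genes, 12.1% rose and 12.6% fell, and nothing is read from counts this small for the last 4 groups. Among the genes of survival, Mcl1, which neutrophils need to live, measured 8571, 8440.1 and 8401 at 0 h and 31479, 30471 and 29852 at 168 h, and rose by 1.85 ± 0.08. Before the GCSF pretreatment, in undifferentiated cells, Mcl1 averaged 33094, so that this rise did not exceed the undifferentiated level. Bcl2 fell by 1.36 (SE 0.10). Of 15 genes of the BCL2 family, 4 rose, 1 fell and 10 were not called.

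**Figure D3:**
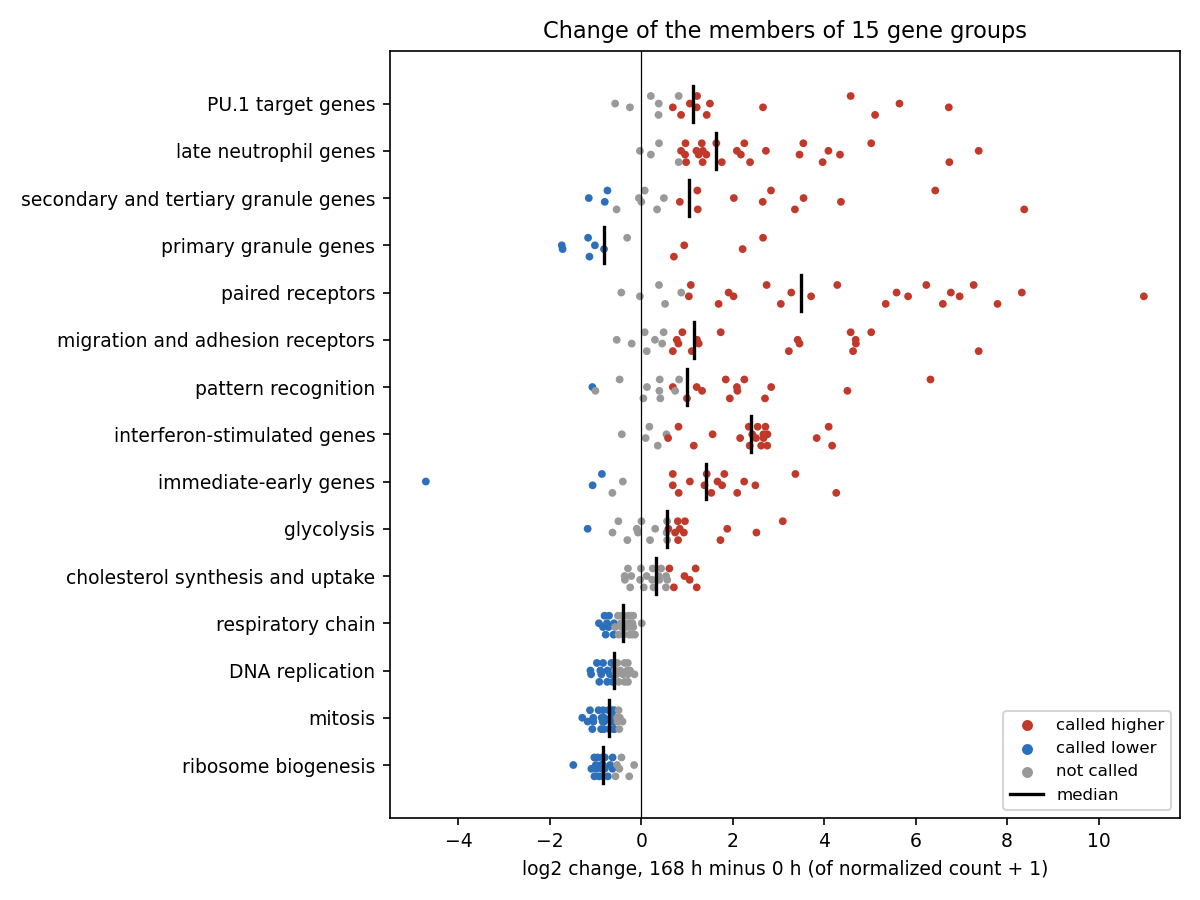
Log2 change between GCSF 0h and GCSF-OHT 168h (x axis) of the tested members of 15 gene groups (y axis). Each dot is a gene, red when called higher, blue when called lower and grey when not called, and black bars are medians. The median was 3.50 for paired receptors and -0.84 for ribosome biogenesis.

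The largest falls were of genes with varied roles. Shank3, a scaffold protein known from synapses (chr15:89499623-89560261), measured 1954, 1434 and 1429.6 at 0 h and 28.5, 18.3 and 28.2 at 168 h, and fell by 5.96 (SE 0.22; limma, adjusted p = 3.33e-49). The chitinase gene Chit1 went from 117.4, 152 and 158.4 to 0, 0 and 7.70, and fell by 6.11 (SE 0.52). Alpl, an alkaline phosphatase, went from 752, 678 and 749 to 31.5, 27.4 and 40.2, and Csn3, kappa-casein, from 287, 224 and 252 to 5.90, 6.52 and 11.1. They fell by 4.43 (SE 0.15) and 4.89 (SE 0.21). Npdc1, Sh3pxd2a, Etv5 and F2rl3 fell by 3.97 to 5.09. The pseudogenes Mrip-ps and Psenen-ps share sequence with their parent genes, so that their differences of -5.98 (SE 1.07) and -4.19 (SE 1.11) are uncertain. So is the largest fall of all, that of Gm10359, which had 0 reads in the 3 libraries at 168 h and 933 or more at 0 h, and which was also at 0 in 1 of 3 undifferentiated libraries while the others were at 4993 or more.

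The 28 time points of the GCSF course (81 libraries, 2 or 3 at each) show how the ends were reached. The genes called higher at 168 h stood at a median of 40.3% of their final difference at 8 h, 52.1% at 24 h, 65.2% at 80 h and 87.2% at 128 h. Those called lower stood at 36.2%, 36.2%, 54.97% and 83.1%. These shares are descriptive, since the genes were chosen by the 168 h values. At 160 h the shares were 99.3% and 97.02%.

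Some genes had a level between the ends that the comparison of 0 h with 168 h does not show. Mpo had its highest mean at 80 h, 70881 ± 10115 (SD, n = 3), against 8885 ± 1085 at 0 h and 17018 ± 2119.6 at 168 h. Elane peaked at the same time, at 159284 ± 5166, and had its lowest mean at 168 h. Cebpe was highest at 80 h, at 2761 ± 262. Gfi1 was at 4087 ± 37.2 by 2 h and never returned to its level at 0 h. Cx3cr1 reached 3831 ± 128.7 by 8 h, near its value at 168 h, and Cxcr2 was lowest at 4 h, at 156.6 ± 16.1, before it climbed. Ptprc and Tyrobp had their highest means at 40 and 48 h, at 995 ± 85.7 and 484 ± 43.98.

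**Figure D4:**
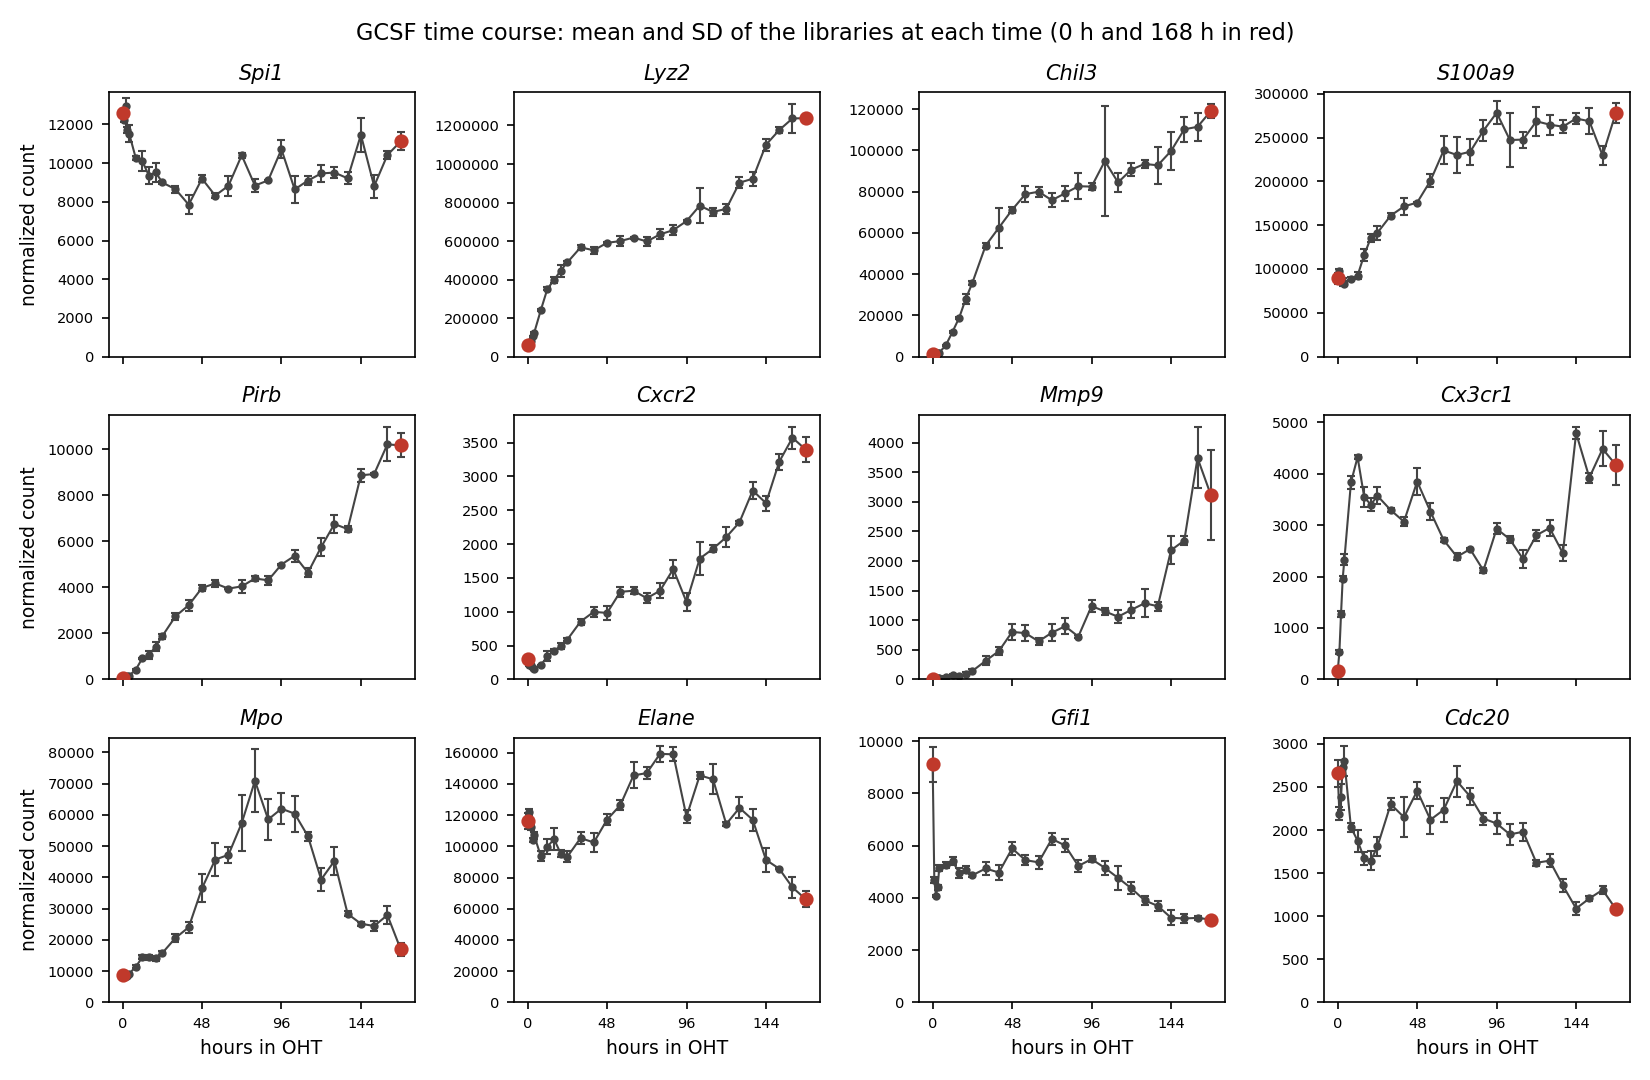
Normalized counts (y axis, from 0) of 12 genes over hours in OHT (x axis) in GCSF, as means with SD of the 2 or 3 libraries at each time. Red points mark 0 h and 168 h. Lyz2 and Chil3 had their highest means at 168 h, while Mpo and Elane had theirs at 80 h.

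To ask which changes depended on the cytokine, the change from 0 h to 168 h in GCSF was tested against that from undifferentiated cells to 168 h of OHT in IL3. The starting states and the OHT doses also differed, 100 nM in GCSF and 200 nM in IL3, and these cannot be told apart from the cytokine. The change was more positive in GCSF for 2520 genes (14.5%) and more negative for 1960 (11.3%). This balance turned with TMM scaling, to 2170 and 2473, and with edgeR, to 2006 and 2262. Of the 2110 genes that rose in GCSF, 1032 were more positive there and 1008 were not called different, and of the 2200 that fell, 972 were more negative and 1147 were not called different.

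Of the neutrophil markers, 11 of 18 changed more positively in GCSF and 4 more negatively, beside 14.5% and 11.3% of all genes. Cxcr2 averaged 390.1 in undifferentiated cells and 479 after 168 h in IL3, so that its rise in GCSF was larger by 3.17 ± 0.13 (limma, adjusted p = 2.08e-43). Csf3r averaged 1099 and 715 in IL3, a difference of changes of 1.49 ± 0.09. S100a9, Mmp9 and Retnlg rose more in GCSF, by 1.30 ± 0.10, 3.01 ± 0.28 and 1.66 ± 0.14. The difference for Gfi1 was -2.91 ± 0.08, as its means in IL3 were 1034 and 2718. The log2 change of Lyz2 was larger in IL3, where it went from 14173 to 804914, and the difference was -1.46 ± 0.08. In GCSF Lyz2 went from 60097 to 1237740, so that it started and ended at a higher level there. Chil3, Pirb and Ctsg had differences of 0.34 ± 0.11, 0.55 ± 0.20 and -0.09 ± 0.06, which were not called.

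By group, 22 of 29 late neutrophil genes, 17 of 26 paired receptors and 14 of 24 interferon-stimulated genes changed more positively in GCSF. The shares over all genes were 14.5% more positive and 11.3% more negative. DNA replication genes changed more negatively in 12 of 30 cases and more positively in 2. Ribosome biogenesis genes gave 2 calls in each direction of 25, below the shares over all genes. Of mitosis genes, 2 of 30 were more negative. Cdc20 averaged 992 and 586 in IL3, and its difference of changes, -0.54 ± 0.11, was too small for a call.

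Several of the genes with the largest differences were abundant at the start of the IL3 course. Slc7a11, the cystine transporter gene, averaged 1194 in undifferentiated cells and 36.99 after 168 h in IL3, against 83.9 and 338 in GCSF, a difference of changes of 6.97 ± 0.30. The immediate-early gene Fosb went from 10336 to 2204 in IL3 and from 38.1 to 762 in GCSF, with a difference of 6.56 ± 0.26. C4b, complement component 4, was at 51.7 and 84.7 in IL3 and went from 36.97, 53.1 and 31.7 to 2550.0, 2806 and 5242 in GCSF, a difference of changes of 5.63 ± 0.31. Arg1, arginase 1, reached 703 in IL3 and measured 1.97, 3.91 and 5.13 in GCSF at 168 h, a difference of -5.19 ± 0.64. Bcl2a1a, Bcl2a1b and Bcl2a1d averaged 198.3, 173.6 and 208.6 in IL3 at 168 h and 13.1, 2.00 and 2.41 in GCSF. These survival genes are near-identical copies, so that their reads may be split among them.

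**Figure D5:**
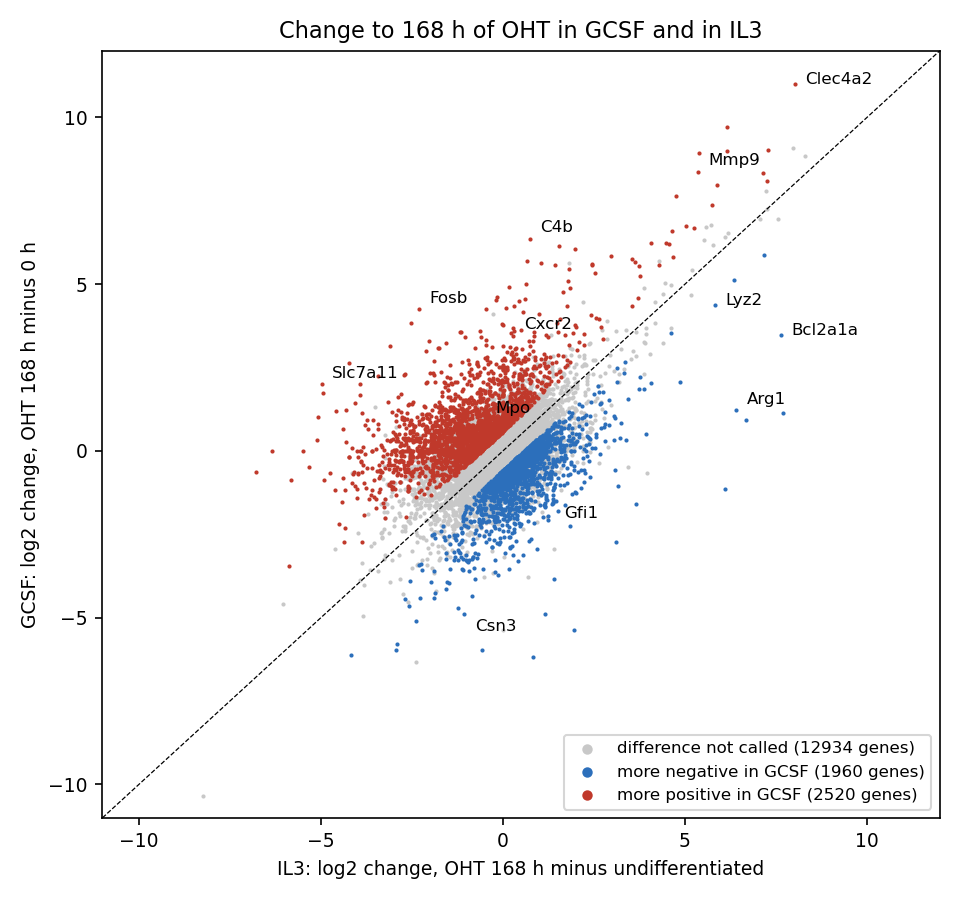
Log2 change from 0 h to 168 h in GCSF (y axis) against that from undifferentiated cells to 168 h of OHT in IL3 (x axis) for 17414 genes. Red points are the 2520 genes whose change was more positive in GCSF, blue points the 1960 more negative and grey points genes not called different, and the dashed line marks equal change. Cxcr2 and C4b lay above the line and Gfi1 and Arg1 below it.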

How the data were processed

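RNA was made from PUER cells with poly(A) selection, and reads were quantified by the authors with Salmon against GRCm38 (versions not given in the sources used here). The deposited values are normalized counts per gene, that is, a signal per gene scaled by the authors with DESeq2's median of ratios. Dividing by the smallest nonzero value of a library gave whole reads for 100.0% of nonzero values (within a relative tolerance of 1e-06), which served for depths, floors and the count tests.

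The 17414 genes that reached a normalized count of 5 in any library were fitted with limma 3.58.1 (R 4.3.3; lmFit and eBayes with trend) on log2(normalized count + 1), with 1 mean for each of 54 groups. The series has 165 libraries, and the 159 that remained without the 6 of IL3-OHT 96h and 144h, left out as in the study, shared 1 estimate of the spread. P-values were adjusted by Benjamini-Hochberg over all genes tested. Fold changes on this scale understate those of scarce genes. edgeR 4.0.16 and DESeq2 1.42.0 were run on the whole reads as alternatives, and edgeR called 2050 genes higher and 2124 lower. The fit was tested on simulated data. The study describes its replicates as biological, and all are of 1 cell line. Since each time point had its own plate, SEs and p-values measure the spread among libraries of a group and not that between plates. Counting intervals and floors (3 reads per library) cover counting error only.

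Named genes were the 12 largest rises and falls with a mean of at least 100 and no overlap (no Gm or Rik names), up to 4 called members per list in its main direction and 2 in the other with a mean of at least 50, Spi1, the neutrophil markers and the 8 largest interactions in each direction. Those named for other reasons, among them Ncf1, Itgb2, Cd300ld, Jun and Gm10359, were chosen after their values were seen. A few genes that the rule or the lists hold are not reported here. The comparison and the 35 gene lists were chosen with earlier results of these data known. Alternatives were other pseudocounts, filters, scalings, tools and samples. Gene coordinates are from GENCODE vM21 (GRCm38) and promoters from RefSeq.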

Additional observations from a re-analysis of the deposited data

Results flagged for a closer look

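The change to 168 h was tested between GCSF and IL3, and the genes named above for this test or as neutrophil markers whose change differed are given here as log2 differences, GCSF minus IL3 (limma). The changes were more positive in GCSF for Slc7a11 (6.97), Fosb (6.56), Egr3 (6.15), Dbn1 (5.76), C4b (5.63), Apol8 (5.51) and Iqcn (5.04). Of these, Egr3, Dbn1, Apol8 and Iqcn averaged 757, 345, 152 and 188.7 in undifferentiated cells and at most 13.7 in the other 3 groups. The changes were more negative in GCSF for Bcl2a1d (-6.56), Bcl2a1b (-5.74), Mrip-ps (-5.40), Arg1 (-5.19), Bcl2a1a (-4.15), Inka1 (-4.08), Csn3 (-3.83) and Efs (-3.70).

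Among neutrophil markers and Spi1, the changes were more positive in GCSF for Cxcr2 (3.17), Mmp9 (3.01), Retnlg (1.66), Csf3r (1.49), Mpo (1.43), S100a9 (1.30), Elane (1.10), Itgam (0.86), Lcn2 (0.82), S100a8 (0.69), Spi1 (0.66) and Ngp (0.61). They were more negative for Prtn3 (-0.59), Ltf (-1.06), Cebpe (-1.25) and Gfi1 (-2.91). Spi1 averaged 9990.4 in undifferentiated cells and 5593 after 168 h of OHT in IL3. Elane changed by -0.82 in GCSF, and its log2 difference in IL3 was -1.91. The cause of these differences was not tested.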

How the results depend on the processing

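The 4 overall counts stayed within 1.5 times their values under each alternative run. Genes higher at 168 h numbered 1858 to 2277 and genes lower 1888 to 2419. With 1 library left out at a time, the ranges were 1979 to 2096 and 2098 to 2124 for the change in GCSF and 2368 to 2509 and 1870 to 2011 for the interaction. TMM scaling turned the balance of the interaction, to 2170 more positive and 2473 more negative genes, as did edgeR, with 2006 and 2262. With the replicate number as a replicate block, 2108 genes were higher and 2198 lower, and 2517 and 1960 for the interaction. Deviations of equally numbered libraries of GCSF 0h and GCSF-OHT 168h correlated at 0.027, -0.019 and -0.0014, so that the numbers were not taken to pair them. A fit of the compared groups alone with this block, added after seeing the data, gave 2032 and 2128.

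Of the named genes, Dbn1 and Apol8 changed direction with 160 h in place of 168 h, to -0.10 and -0.27, both with under 10 normalized counts on average in GCSF. Genes whose call for the change in GCSF was lost under at least 1 alternative included Arg1, Cebpe, Fcgr4, Gusb, Lta4h, Prss57 and Psenen-ps. Of the 32 interaction calls among the named genes, 2 were lost with TMM scaling, 4 with edgeR and 2 with DESeq2. With 160 h in place of 168 h, 4 were lost. No gene with few reads at both ends can be compared at this depth.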

Other observations

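Gene families outside the lists were described after their values were seen, with no test of the family. Of 79 cytosolic ribosomal protein genes, 27 fell and none rose, with a median of -0.51. For 75 of them the 3 libraries at 168 h were below those at 0 h, as for 29.2% of all genes. Rplp0 measured 43961, 42266 and 45224 at 0 h and 26551, 26317 and 25149 at 168 h. Of 78 mitochondrial ribosomal protein genes, 17 fell and 1 rose. For comparison with both families, 12.6% of all genes fell and 12.1% rose.

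Of 22 genes that respond to low oxygen, 16 rose and 1 fell, beside 12.1% and 12.6% of all genes. Ankrd37 measured 8.32, 9.74 and 10.3 at 0 h and 1140.2, 1349.6 and 794 at 168 h, Bnip3 rose by 2.25 ± 0.18 on the log2 scale, and Ndrg1 by 3.57 ± 0.13. In IL3, Ankrd37 averaged 92.8 in undifferentiated cells and 3529 at 168 h, Bnip3 11392 and 16400, and Ndrg1 7886 and 14170. Cell density and oxygen were not measured in these libraries.

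Some abundant genes outside the lists also changed. The acute-phase gene Saa3 went from 162, 205.4 and 194.8 to 9067, 8855 and 11093, a rise of 5.68 ± 0.15, and stood at 93.4 and 152 at the ends of the IL3 course. Nos2, the inducible nitric oxide synthase, rose by 5.00 ± 0.24 and Cfp, properdin, by 4.34 ± 0.12. Fth1, the ferritin heavy chain, rose by 2.24 ± 0.07 and took 0.809 to 0.923% of the reads at 168 h. It averaged 112012 in undifferentiated cells, 40195 at 0 h and 189795 at 168 h. Csn2, beta-casein, which is a gene of the mammary gland, measured 27511, 25952 and 30083 at 0 h and 3508, 3444 and 3039 at 168 h, and averaged 115787 and 119493 at the ends of the IL3 course.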
